A study of Danio rerio with 11 samples.

Results

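The brain list of methylated regions was compared with the lists of eye, heart and liver, taken as 3 further adult tissues of the zebrafish. Its members were all 79008 deposited brain peaks, out of 816382 peaks in the 9 lists of the series, and none was left out. The samples came from Tübingen/AB fish. Brain, eye, heart and liver were collected from untreated adult females, all under a year of age, and the organs of several fish were combined, so each list is an average over animals and over the neurons, glia, blood and other cells that an organ holds. The lists against which the brain peaks were later read came from sperm of adult males, one-cell embryos, embryos at the mid-blastula transition (mbt) and embryos at 3 days post-fertilization (3dpf), all untreated, and from 3dpf embryos kept in 400 µM methotrexate from the one-cell stage (MTX-3dpf). Methotrexate blocks dihydrofolate reductase and so limits the folate cycle that feeds methyl group transfer.

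In vertebrates a methyl group is placed on cytosine mostly where a guanine follows it (CpG), and most CpGs of the genome carry one, while CpG-rich promoters are usually free of it. In MBD-seq, sheared DNA is captured with a methyl-CpG binding domain protein and the bound fragments are sequenced. A peak therefore marks a place where methylated CpGs lie close together, and methylated DNA with few CpGs is largely missed. Adult neurons of mammals are known for methylation marks that other cells carry less of, including hydroxymethylated cytosine and methylated cytosine outside CpG. Neither of these marks was measured here.

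Each peak was an interval reaching 100 bp to each side of a peak centre on the Zv9 build, with a score whose unit is not given in the sources used here and which was used only to rank the peaks of 1 list. In embryo regions that the authors checked by bisulfite sequencing, the peak score was unrelated to how much CpG methylation was found. A high score is thus read here as a rank and not as a level of methylation. A peak was counted as shared where its interval overlapped one of another list by 1 bp or more. Brain had 79008 peaks, against 45785 in eye, 50110 in heart and 50170 in liver, so the brain list was 1.73 times as long as that of eye and 1.58 times and 1.57 times as long as those of heart and liver. There was 1 list per condition and thus no replicate check of any difference below. The intervals given after a share are 95% Wilson intervals, which cover counting error only. Peak names in the brain list show that it was called on lanes 4 and 5 together, whereas eye, heart and liver came from lane 4 alone and sperm, one-cell and mbt from lane 5 alone. By the series' description, the methylation-poor brain fraction of lane 4 served as control for eye, heart and liver, and that of lane 5 for sperm, one-cell embryos and mbt. The files hold no read totals. By the read counts given with the study, the lanes of brain together held more reads than the single library of eye, heart or liver, so the longest of the 4 lists is also the most deeply sequenced. Depth, lane, control and tissue cannot be told apart in these lists. To take the length of the lists out of the comparison, each count was repeated on the 45785 highest-scoring peaks of each list, which is the length of the eye list.

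Brain peaks fell mainly into 2 classes, those found in all 3 other tissues and those found in none. Of the 79008 brain peaks, 37847 overlapped a peak in each of eye, heart and liver (47.9%, 47.6 to 48.3). Another 30338 overlapped none of them (38.4%, 38.1 to 38.7), and these are called brain-biased here. Only 5208 brain peaks were shared with 1 tissue (6.59%) and 5615 with 2 tissues (7.11%). The same count with another tissue in the place of brain gave a very different split. Only 532 eye peaks lay outside the 3 other adult lists (1.16%), as did 800 heart peaks (1.60%) and 1043 liver peaks (2.08%), while 83.0% of eye, 75.8% of heart and 75.7% of liver peaks were shared with all 3 others. The brain share with no overlap lay outside the intervals of each of the other tissues. With 1 list per tissue these intervals cover counting error only, so this is no test of a difference between tissues.

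**Figure D1:**
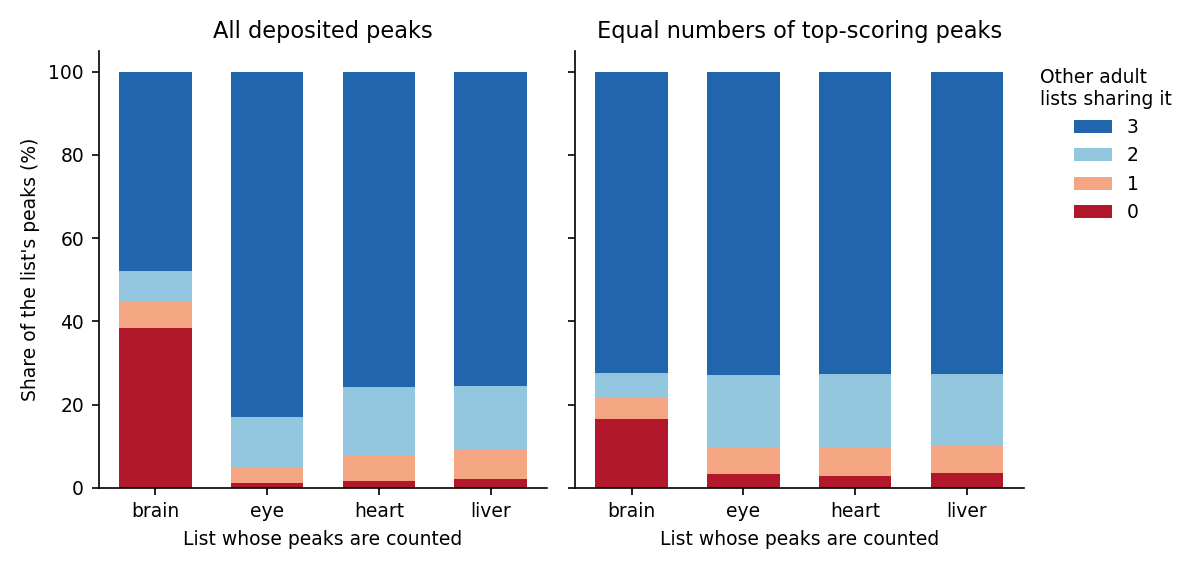
Share of each adult list's peaks, in percent, by the number of the other 3 adult lists that share them, for all deposited peaks on the left and for the 45785 highest-scoring peaks of each list on the right. The part found in no other list makes up 38.4% of brain and at most 2.08% of the other lists on the left, and 16.6% of brain and at most 3.54% of the others on the right.

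At equal numbers of peaks the brain list still held the most peaks of its own, but the gap was smaller. Of its 45785 highest-scoring peaks, 7613 overlapped none of the equally long eye, heart and liver lists (16.6%, 16.3 to 17.0). The same count was 1499 in eye (3.27%), 1283 in heart (2.80%) and 1620 in liver (3.54%). The share found in all 4 adult tissues was 72.5% of brain peaks, 72.8% of eye peaks and 72.7% of both heart and liver peaks, which are the same places counted from lists of one length and so are alike by construction. With the brain list alone cut to this length, 6679 brain peaks were in none of the others. In pairs, brain shared 78.7% of these peaks with eye, 77.7% with heart and 78.0% with liver, whereas eye shared 91.4% with heart and 89.8% with liver, and heart shared 91.2% with liver. In the full lists, brain held 89.0% of eye, 89.1% of heart and 88.9% of liver peaks. There the shorter eye list held 86.5% of heart and 85.2% of liver peaks. Heart held 94.7% of eye and 90.5% of liver peaks, and liver 93.3% of eye and 90.6% of heart peaks.

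The reverse set, peaks present in eye, heart and liver that brain lacks, was larger at equal numbers than in the full lists, whereas the brain-biased set was smaller. In the full lists, brain lacked 3473 of the 41467 eye peaks that heart and liver also held (8.38%). Eye, whose list is the shortest, lacked about as many, 3405 of the 41252 brain peaks found in heart and liver (8.25%), while heart lacked 2.21% and liver 3.45% of the corresponding brain peaks. At equal numbers brain lacked 6228 of 39555 (15.7%), against 2.37% for eye, 2.48% for heart and 3.09% for liver. The cut took far more peaks from brain than from heart or liver, and it left the eye list whole. Part of the rise for brain is thus made of brain peaks that the cut left out. In the eye list the peaks that brain lacked had a median score percentile of 44.0, below the 50.7 of those that brain held. The corresponding percentiles were 40.5 and 51.0 in heart and 41.1 and 51.0 in liver.

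No single tissue accounted for the partial sharing. The heart and liver lists were nearly of one length, at 50110 and 50170 peaks, and the eye list was shorter. Of the brain peaks found in just 1 other tissue, 677 were in eye, 2043 in heart and 2488 in liver. At equal numbers the corresponding counts were 928 in eye, 488 in heart and 845 in liver. Eye thus had the smallest of the 3 counts in the full lists, with 0.86% of brain peaks against 2.59% for heart and 3.15% for liver. At equal numbers eye had the largest, with 2.03% against 1.07% and 1.85%. The cut left the eye list whole and took peaks from heart and liver, which bears on these counts and on those for 2 tissues. How far it does was not tested. Of the brain peaks found in just 2 tissues, 3405 were in heart and liver, 1354 in eye and heart and 856 in eye and liver. At equal numbers heart and liver had the smallest count, with 805, against 1057 for eye and heart and 846 for eye and liver.

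Shared peaks lay almost exactly on top of each other. The centre of a shared brain peak was a median of 17 bp from the eye centre and 16 bp from the heart and liver centres. Between eye, heart and liver the median offsets were slightly smaller, at 12 to 13 bp. The nearest eye, heart or liver centre was a median of 7551 bp from a brain-biased peak, and 12763 of the 30338 brain-biased peaks had none within 10 kb. Brain-biased peaks lay a little closer to the next brain peak, at a median of 4613.5 bp, than peaks shared with all 3 tissues, at 5150 bp. By decile of brain score, the same order held in deciles 1 to 8 and was reversed above. The medians were 6043.5 against 5091.5 bp in decile 9 and 7382 against 5192 bp in decile 10. Some brain-biased peaks were near misses, with 2353 (7.76%) having an eye, heart or liver centre within 1 kb.

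Brain-biased peaks were mostly low in score, but not all of them. Their median score was 36.7, which is the 22.3rd percentile of the brain list, against 314.8 and the 70.7th percentile for brain peaks shared with all 3 tissues. Brain peaks shared with 1 or 2 tissues had medians of 79.6 and 96.4, in between. When the brain list was split into deciles by score, 92.6% of the lowest decile was brain-biased and 1.0% was shared with all 3 tissues. The brain-biased share then fell to 67.8% in decile 3, 30.3% in decile 5 and 9.18% in decile 8. Beyond this point it did not fall further, with 804 of 7901 peaks (9.53 to 10.9%) in decile 9 and 16.1% (15.3 to 16.9) in decile 10, where 1268 of 7900 peaks were brain-biased. The share of eye, heart and liver peaks outside the 3 other lists also rose at the top, at a far lower level. It was 0.52% in eye and 0.66% in both heart and liver in decile 8. In decile 10 it was between 1.83% and 1.86%. The upturn was thus not particular to brain.

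**Figure D2:**
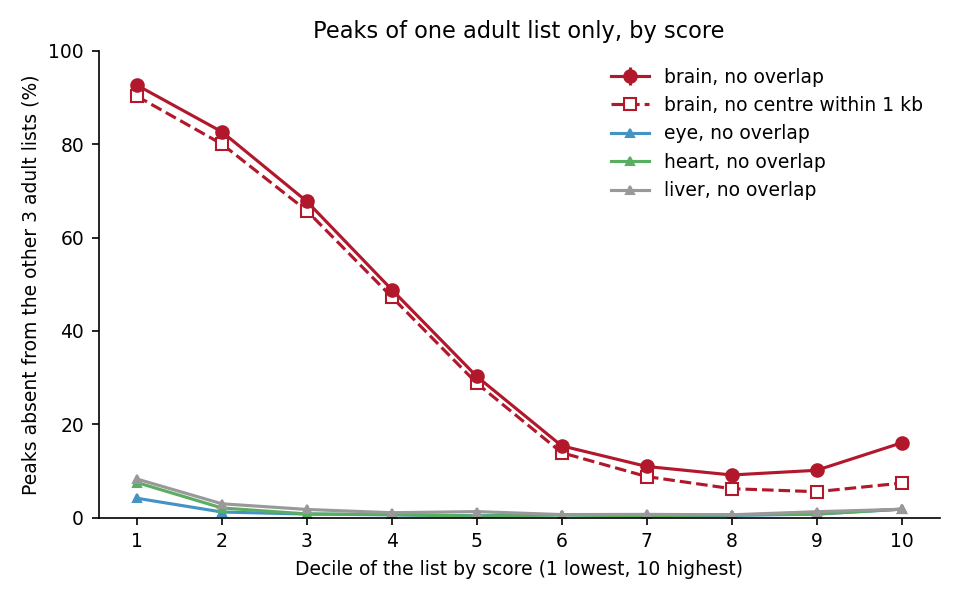
Share of peaks absent from the other 3 adult lists, in percent, by decile of the list's own score, for brain (circles, bars are 95% Wilson intervals), for brain peaks with no other adult centre within 1 kb (squares) and for eye, heart and liver (triangles). The brain curve runs between 92.6% and 9.18% and turns up to 16.1% in decile 10, where the stricter count is 7.43%.

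Near misses made up a larger part of the brain-biased peaks at high score. Among brain-biased peaks, the share with an eye, heart or liver centre within 1 kb was 2.55% in decile 1, 9.52% in decile 6 and 53.7% in decile 10. Without them, 13.9% of decile 6, 5.59% of decile 9 and 7.43% of decile 10 had no centre of another adult tissue within 1 kb. Of the 4884 brain-biased peaks in the 5 upper deciles, 1562 had such a centre and 3322 did not. Brain-biased peaks of the 5 upper deciles are called strong below and those of the 5 lower deciles weak. Both names refer to the rank of the score and not to the amount of methylation. The 3322 peaks are thus places of high brain score at which none of the 3 other tissues had a peak nearby, and on the 25 chromosomes 1346 of the brain-biased peaks of the 5 upper deciles had none within 10 kb.

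The brain-biased peaks were next looked up in sperm and the embryos, which the choice of these peaks did not use. Of the 30338 brain-biased peaks, 22519 overlapped a peak of sperm, one-cell embryos, mbt or untreated 3dpf (74.2%, 73.7 to 74.7), and 12867 overlapped a peak in all 4 of these lists (42.4%). Over all brain peaks the share found in at least 1 of the 4 lists was 87.7%. By class it was 97.5% (97.4 to 97.7) for brain peaks shared with eye, heart and liver, 92.6% for those shared with 2 tissues and 89.7% for those shared with 1. In the same order, 71.5%, 59.6% and 55.3% of these classes were in all 4 lists, each above the 42.4% of brain-biased peaks. Sperm held 63.8% of the brain-biased peaks, one-cell embryos 59.2%, mbt 58.5% and 3dpf 57.4%. The order of these lists is not that of their lengths, as the one-cell list with 178587 peaks is the longest and the sperm list with 96505 is shorter than both the mbt and the 3dpf list. MTX-3dpf, with 91872 peaks, held 50.6% of the brain-biased peaks, against 57.4% for untreated 3dpf with 101868 peaks. Of the brain peaks shared with all 3 tissues, sperm held 91.3%, one-cell embryos 78.6%, mbt 89.9%, 3dpf 89.5% and MTX-3dpf 88.1%. Sperm, one-cell and mbt share lane 5 with the brain list, and the part of the lane in these shares was not tested.

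**Figure D3:**
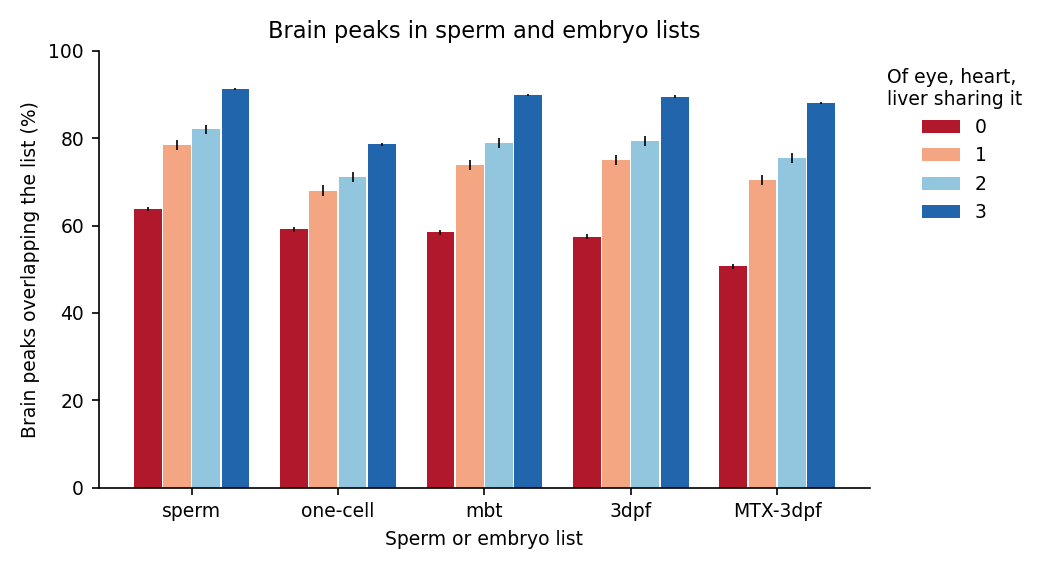
Share of brain peaks that overlap a peak of each sperm or embryo list, in percent with 95% Wilson intervals, by the number of the 3 tissues eye, heart and liver that share the brain peak. In each list the share is lowest for brain peaks shared with none, from 50.6% in MTX-3dpf to 63.8% in sperm, and highest for those shared with all 3.

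Presence in sperm and embryos split the brain-biased peaks by their brain score. In deciles 1 to 4 between 80.3% and 84.6% of them were found in sperm, one-cell, mbt or 3dpf. The share was 69.9% in decile 5, 54.4% in decile 6, 33.8% in decile 7 and 24.1% (21.3 to 27.2) in decile 9. In decile 10 it was 31.0% (28.5 to 33.6). Brain peaks shared with eye, heart and liver went the other way, from 66.7% in decile 1, which holds only 78 of them, to between 97.2% and 98.1% in deciles 5 to 10. By overlap, weak brain-biased peaks were thus mostly places that gametes and embryos also carry, and strong brain-biased peaks mostly overlapped no peak of the 4 lists. Some of the strong ones without overlap had such a peak nearby. A sperm or embryo centre lay within 1 kb of 60.8% of the strong and 85.2% of the weak brain-biased peaks. These shares include the peaks that overlapped one, which were 36.0% of the strong and 81.6% of the weak. In decile 10 the share within 1 kb was 70.3%, against 31.0% by overlap.

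**Figure D4:**
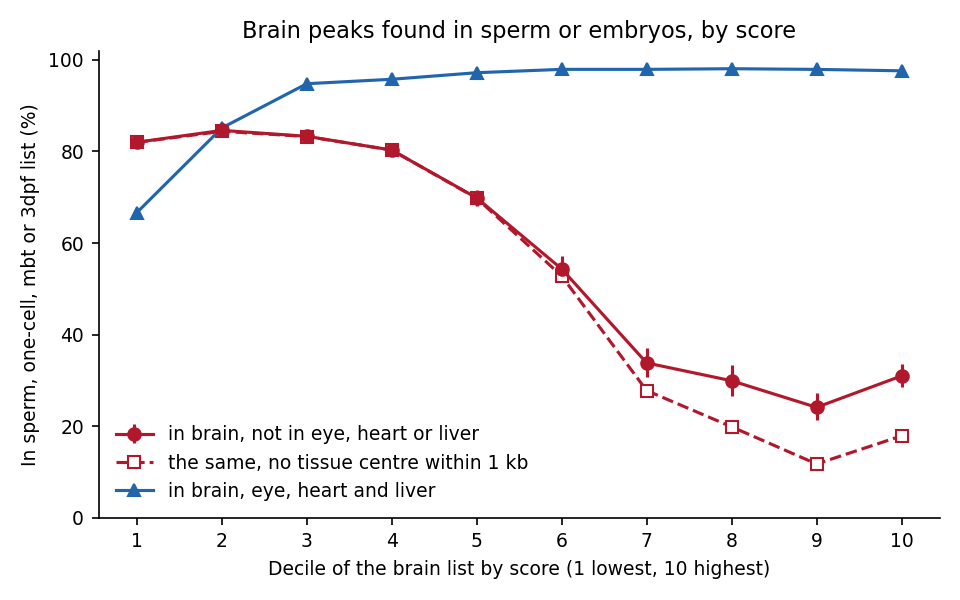
Share of brain peaks found in the sperm, one-cell, mbt or 3dpf list, in percent, by decile of the brain score, for brain-biased peaks (circles, bars are 95% Wilson intervals), brain-biased peaks with no eye, heart or liver centre within 1 kb (squares) and peaks shared with all 3 tissues (triangles). Brain-biased peaks lie above 80% in deciles 1 to 4 and at 24.1% in decile 9, where the stricter count is 11.8% and shared peaks are at 97.9%.

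In the 5 lower deciles, 48.7% of the 25454 brain-biased peaks were in all 4 sperm and embryo lists and 18.4% were in none. In the 5 upper deciles, 9.77% of the 4884 were in all 4 and 64.0% in none. Of brain peaks shared with all 3 tissues, 69.4% in the lower and 71.9% in the upper deciles were in all 4. Without the near misses the share of brain-biased peaks found in at least 1 list was 81.5% in the lower deciles and 31.0% in the upper. This alternative was chosen after seeing the data. An embryo or sperm centre lay within 1 kb of 45.2% of the 3322 strong peaks that had no eye, heart or liver centre as near, and of 94.0% of the 1562 that had one. These shares too include overlapping peaks, at 31.0% and 46.7%. Where a weak brain-biased peak was present in sperm, the sperm peak was of middling rank, with a median percentile of 42.4, against 78.8 for sperm peaks that match a brain peak shared with all 3 tissues. In 3dpf the corresponding percentiles were 42.7 and 79.1, and in one-cell embryos 70.2 and 85.0. For strong brain-biased peaks they were 57.0 in sperm, 56.6 in 3dpf and 79.6 in one-cell embryos. The peaks shared with all 3 tissues were not split by score here. Only 17.7% of them were in the 5 lower deciles, so the contrast with weak peaks mixes brain score with sharing.

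The peaks that eye, heart or liver held alone were present in sperm and embryos about as often, in 63.9% of 532 eye, 68.9% of 800 heart and 70.7% of 1043 liver peaks. They did not show the same fall with score. In the highest decile, 74.1% of 85 such eye peaks, 69.9% of 93 heart peaks and 69.6% of 92 liver peaks were in sperm or an embryo list, against 31.0% of the 1268 in brain. At equal numbers in all lists, 30.7% (29.6 to 31.7) of the 7613 brain-biased peaks were in at least 1 sperm or embryo list, against 45.2% of the peaks held by eye alone, 61.7% by heart alone and 60.7% by liver alone. Over all 45785 brain peaks of this cut the share was 77.7%.

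Read from the other side, sperm had 49570 peaks that eye, heart and liver all lacked, and brain held 19406 of them (39.1%, 38.7 to 39.6). Eye held 0.55% of the sperm peaks that the other 3 adult tissues lacked, heart 1.17% and liver 1.39%. At equal numbers these shares were 15.4% for brain, 4.30% for eye, 6.07% for heart and 6.87% for liver. Of the peaks that eye, heart and liver lacked, brain held 13.1% in one-cell embryos, 23.3% in mbt and 31.9% in untreated 3dpf in the full lists, and 6.35%, 15.8% and 12.2% at equal numbers.

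The density of brain peaks along the chromosomes followed that of the other tissues, at a higher level in the full lists. In 1369 windows of 1 Mb on the 25 chromosomes, brain had a median of 49 peaks, against 27 in eye and 30 in both heart and liver. Brain had more peaks than each of the 3 others in 1362 windows (99.5%, 98.9 to 99.8) and fewer than all of them in none. The median ratio of the brain count to the mean of the 3 tissues was 1.62, and the middle 50% of windows lay between 1.47 and 1.79. At equal numbers all 4 lists had a median of 27 peaks per window. Brain then had the most peaks in 355 windows (25.9%, 23.7 to 28.3) and the fewest in 468 (34.2%). Eye was highest in 13.4% and lowest in 14.3% of windows, heart in 17.8% and 12.9%, and liver in 19.4% and 15.4%. Brain thus stood alone at an extreme more often in both directions. These counts leave out ties, which were fewer for brain. Brain tied for the most peaks in 135 windows, eye in 181, heart in 210 and liver in 209, and ties for the fewest were not counted.

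**Figure D5:**
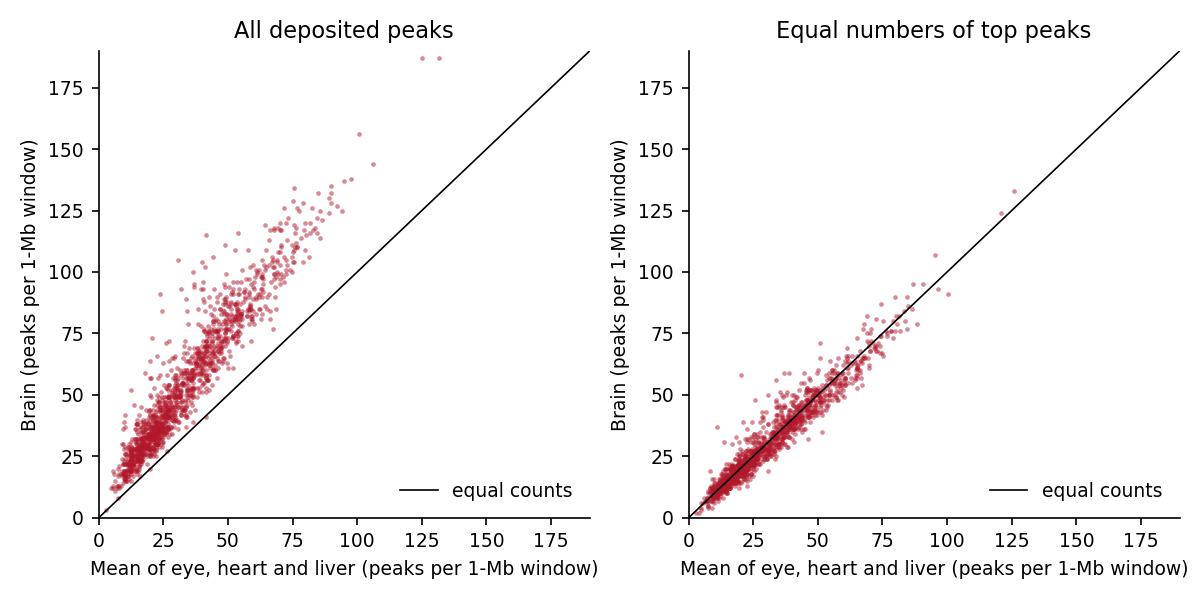
Brain peaks per 1-Mb window against the mean of eye, heart and liver, each point being 1 of 1369 windows, for all deposited peaks on the left and equal numbers of top peaks on the right, with a line at equal counts. On the left nearly all windows lie above the line with a median ratio of 1.62, and on the right the median ratio is 0.98, with single windows up to 3.36.

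Window counts of brain correlated with those of each tissue at Pearson's r of 0.961 to 0.968 at equal numbers, over 1369 windows that share the same sequence and its CpG content. Between eye, heart and liver r was 0.987 to 0.990. The share of a list's peaks in a window minus the mean share of the others had an SD over windows of 0.0100 percentage points in brain, against 0.0052 in eye, 0.0056 in heart and 0.0061 in liver. When windows were ranked by their number of sperm peaks, the full-list ratio of brain to the mean of the tissues had a median of 1.71 in the sparsest quartile and 1.54 in the densest. At equal numbers the corresponding medians were 1 and 0.97, so most of this trend was gone. In the full lists, brain-biased peaks made up 43.3% of brain peaks in the sparsest quartile and 34.1% in the densest, against 38.4% of the whole list. The strong ones with no other adult centre within 1 kb made up 6.25% and 2.37%.

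The 5 windows with the largest brain excess at equal numbers lay inside chromosomes. In chr8:35000001-36000000 brain had 58 of its top peaks, against 22 in eye, 19 in heart and 20 in liver. Of the 91 brain peaks deposited there, 67 were brain-biased (73.6%), and 34 of these were strong and had no other adult centre within 1 kb, the most in any window. Only 23 of the 67 were in sperm or an embryo list, although sperm had 58 peaks and one-cell embryos 104 in this window. In chr3:36000001-37000000 brain had 37 top peaks, against 10 in eye, 15 in heart and 8 in liver, and 39 of 52 deposited brain peaks were brain-biased, 8 of them also found in sperm or embryos. In chr9:17000001-18000000 brain had 48, against 27 in eye and 25 in both heart and liver, and 43 of 72 were brain-biased. In all 3 windows the brain-biased peaks scored well above their overall median of 36.7, with medians of 228.4, 172.8 and 119.5. The windows were chosen for an excess of top-scoring brain peaks, so high scores and high brain-biased shares there follow in part from the choice. Over the whole brain list 38.4% of peaks were brain-biased. Of all brain-biased peaks 74.2% were in sperm or an embryo list, and of the strong ones 36.0%.

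The 2 other windows of largest excess were on chromosome 4. In chr4:32000001-33000000 brain had 56 top peaks, against 33 in eye, 33 in heart and 35 in liver, and in chr4:41000001-42000000 it had 59, against 37 in eye, 35 in heart and 39 in liver. Most brain-biased peaks here were weak, as over the whole list, where 83.9% were. Strong ones made up 14 of 64 and 8 of 51, and the median scores of 45.4 and 51.1 lay above the overall 36.7. Of the 64 and the 51, 32 and 18 were in sperm or an embryo list, against 74.2% of all brain-biased peaks. Chromosome 4 was also the chromosome with the largest brain excess, holding 5.13% of the brain list at equal numbers, against 4.64% of eye, 4.41% of heart and 4.48% of liver. The excess lay beyond 25 Mb, where brain had 4.41% of its peaks, against 3.87% in eye, 3.62% in heart and 3.71% in liver, while up to 25 Mb brain had 0.72%, against 0.77% to 0.79%. On chromosome 4, 49.2% of brain peaks were brain-biased, the highest share of any chromosome, and chromosome 21 had the lowest at 34.2%.

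The 5 windows with the largest brain deficit were mostly at chromosome ends. They were chr19:1-1000000 with 35 brain peaks, against 49 in eye, 52 in heart and 54 in liver, and chr21:1-1000000 with 53, against 58 in eye, 69 in heart and 68 in liver. The last part window of chromosome 5, chr5:75000001-75680347, had 32 in brain, against 45 in eye and 47 in both heart and liver. The window chr3:1000001-2000000 had 54 in brain, against 67 in eye, 70 in heart and 64 in liver, and chr23:14000001-15000000, inside its chromosome, had 19, against 30 in eye, 30 in heart and 32 in liver. In none of the 5 was the full brain list the shorter one, with 39 to 99 brain peaks. Over the 150 windows within 3 Mb of an end, brain had 16.1% of its chromosomal peaks at equal numbers, against 16.9% in eye, 17.0% in heart and 17.3% in liver. Chromosome 17 had the largest brain deficit among chromosomes at equal numbers, with 3.46% of brain peaks, against 3.68% of eye, 3.66% of heart and 3.65% of liver. The chromosome depended on the cut. In the full lists it was chromosome 6, with 3.91% of brain peaks, against 4.09% of eye, 4.08% of heart and 4.11% of liver.

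Neighbouring brain peaks lay 9491 bp apart in the median (9371 to 9605), against 15686 bp in eye, 14472 bp in heart and 14438 bp in liver. At equal numbers the median was 16149 bp in brain (15870 to 16383), against 15686 bp in eye (15462 to 15939), 15980 bp in heart and 15851 bp in liver, and the intervals of brain and each of the 3 overlapped. These intervals too cover counting error only. In the equally long lists 145 brain peaks had another brain peak within 1 kb (0.32%, 0.27 to 0.37), against 653 in eye (1.43%), 434 in heart (0.95%) and 615 in liver (1.34%). The cut by score took far more peaks from brain than from heart or liver and none from eye, so it removed neighbouring peaks mainly from brain. In the full lists brain had the highest share, with 2.84% in brain, 1.43% in eye, 1.44% in heart and 1.86% in liver.

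The longest unbroken run of neighbouring brain-biased peaks on the chromosomes held 57 brain peaks in chr19:44026669-44223389, which is 196.7 kb without an eye, heart or liver peak. Their median score was 17.5, and 12 of the 57 were in sperm or an embryo list. The next runs held 31 peaks in chr2:6030943-6181503 and 30 in chr3:50395108-50477862, with median scores of 52.9 and 55.5. Of these peaks, 1 and 3 were in sperm or an embryo list. The median scores of the 3 runs fell in deciles 1, 3 and 4 of the brain list. In these deciles 82.0%, 83.3% and 80.3% of brain-biased peaks were in sperm or an embryo list, against 74.2% of all brain-biased peaks. The 3 runs were thus an exception among weak brain-biased peaks, most of which were in sperm or an embryo list. These runs were named after their values were seen.

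The 5 highest-scoring isolated brain peaks overlapped no peak of any other list, which for eye, heart and liver follows from their choice. This does not hold for isolated peaks in general. Of the 1346 such peaks in the 5 upper deciles on the chromosomes, 344 (25.6%) were in sperm or an embryo list. The 5 highest-scoring brain peaks with no eye, heart or liver centre within 10 kb ranked between 97 and 376 among the 79008. The first, chr21:26550941-26551141, scored 898.0, and the nearest eye centre was 34105 bp away. The nearest sperm, one-cell and mbt centres lay 2046 to 2048 bp from it, and the nearest 3dpf centre 34044 bp. The second, chr9:20116674-20116874, scored 854.1, with the nearest eye, heart or liver centre 20699 bp away. The nearest sperm and 3dpf centres lay 2085 and 2095 bp from it. The peak at chr12:40790876-40791076 scored 839.3 and had its nearest adult centre outside brain at 61182 bp, but sperm, mbt, 3dpf and MTX-3dpf each had a centre 776 to 788 bp from it. The peak at chr4:43918214-43918414 scored 835.7 and had no centre of any other list within 10 kb. The last, chr3:47843076-47843276, scored 828.3 and lay 75116 bp from the nearest liver centre, and the next brain peak was 35135 bp away. Genes, repeats and sequence at these positions were not analysed here.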

How the data were processed

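The authors aligned paired reads of each MBD-seq library to Zv9 with BWA 0.5.8c, kept properly paired reads above a mapping quality limit, called peaks with MACS2 2.0.10.20120703 and, by their methods, widened each peak centre by 100 bp to each side. The deposited lists hold these intervals and a score of unstated unit. Samples were grouped by their labels, and the brain list, deposited for the whole series, was matched to brain by its name.

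Overlaps, nearest centres, spacing and counts in 1-Mb windows, by peak centre, were obtained in Python (3.11.15) using pandas (2.3.3), NumPy (2.4.6) and SciPy (1.17.1), with functions tested on simulated lists. Chromosome ends were taken as the last peak end over the 9 lists. Intervals of medians came from order statistics at 95%. With 1 list per condition no test between conditions was made. Regions were named by rule as the 5 windows and the chromosome of largest brain excess and deficit in share of equal-length lists, and the 5 highest-scoring brain peaks with no eye, heart or liver centre within 10 kb. The members, rules and alternatives were chosen with earlier results of these data known. Alternatives were stricter and looser overlap, list length, score, sequences, merged intervals, window size, and lists left out. Fractions depleted of methylation have no list of their own and were not analysed here.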

Additional observations from a re-analysis of the deposited data

Results flagged for a closer look

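Among 17 measures compared over the 4 adult lists, brain stood apart from the other 3 in 6, by a gap to the nearest list that took up most of the range. Chance gives such a gap in about 1 of 20 groups of 4 independent values, and the 6 measures are not independent. All but the number of peaks compare each list with the other 3, so their 4 values depend on each other. The rate does not apply to them. Brain had 79008 peaks, against 45785 to 50170 in the others. Its share of peaks in no other adult list was 38.4% in the full lists and 16.6% at equal numbers. The mean correlation of its window counts with the other tissues was 0.947 in the full lists and 0.963 at equal numbers. The SD over windows of its share minus the mean share of the others was 0.0120 percentage points in the full lists. The 2 lanes of the brain list, its control and its tissue cannot be told apart in any of these.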

How the results depend on the processing

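Of 50 alternatives to the main values, 18 stayed within the interval of the main value, or within 1.5 times for the count, and 32 moved. List length moved most. The 30338 brain-biased peaks became 7613 at equal numbers, 6679 with brain alone cut and 15635 among peaks at or above the median score. The share of brain peaks in all 3 tissues (47.9%) became 72.5%, 74.6% and 47.3% under these, 44.6% with 100 bp of overlap, 52.1% with centres within 1000 bp, 48.4% without chromosome 4, 52.2% without eye, 49.0% without heart and 49.6% without liver. The share of windows with most peaks in brain (99.5%) became 25.9% at equal numbers, 12.1% with brain alone cut, 97.8% at the median score, 72.4% in windows of 100 kb and 100% in windows of 5 Mb. The median spacing (9491 bp) became 16149 bp at equal numbers, 18499 bp at the median score, 9744 bp on the 25 chromosomes and 9662 bp without chromosome 4. The share of brain-biased peaks in sperm or embryos (74.2%) became 30.7% at equal numbers, 44.9% with brain alone cut, 62.3% at the median score, 70.0% with 100 bp of overlap, 80.1% with centres within 1000 bp, 75.1% on the 25 chromosomes, 75.6% without chromosome 4, 75.1% without heart, 75.5% without liver, 71.6% without one-cell embryos and 71.2% without sperm. Merging changed nothing, as no intervals touched. Shorter lists hold fewer peaks to overlap by construction. Equal numbers equalise neither depth, which was greater for brain over its lanes together, nor the controls. No paired analysis was possible because there are no replicates.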
